A study of Mus musculus with 19 samples.

Results

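The comparison described here sets T follicular helper (Tfh) cells that expressed a BCL6 reporter against effector helper T cells sorted beside them. It uses 6 of the 19 mouse arrays of the series, 1 Affymetrix array per sorted sample, chosen by their titles: replicates 1 to 3 of CXCR5hi PD-1hi YFP-BCL6+ cells (called YFP-positive below) and replicates 1 to 3 of CXCR5lo PD-1lo cells. Both come from day 7 after immunization. YFP-positive replicate 4, from day 10, serves as a check outside the test, and 2 arrays of naive CD4+ T cells show the level before activation.

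Per the labels, mice of the C57BL/6J strain received OT-II helper T cells, whose transgenic receptor sees an ovalbumin peptide, and which carried 1 Bcl6 allele marked with a yellow fluorescent protein (Bcl6yfp/+). The hosts were then given NP-OVA, a hapten-coupled ovalbumin, under the skin in complete Freund's adjuvant (CFA), and cells of their draining lymph nodes were sorted on CXCR5, PD-1 and YFP. Both groups therefore share the transfer, the reporter allele, the immunization, the tissue and the day, and differ in the gate. The labels name no gate on the transferred cells, no YFP gate for the CXCR5lo PD-1lo cells, and neither age nor sex. They do not say whether animals were pooled or whether each replicate is a different animal. The spread on which the p-values rest could therefore be technical, at least within the groups compared. In the main fit this spread was estimated within the groups of the whole series, not only within the groups compared. The other groups included naive cells and CXCR5hi PD-1hi YFP-BCL6- cells. They also included CXCR5hi PD-1hi cells of Bcl6yfp/+ and of Bcl6+/+ genotype whose titles name no YFP gate. Naive cells (CD4+ CD44lo CD62Lhi) came from unimmunized mice.

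Tfh cells enter B cell follicles, where they help B cells to form germinal centres and to switch and mutate their antibodies. The repressor BCL6 is needed for their formation, the chemokine receptor CXCR5 brings them into the follicle, and IL-4 and IL-21 are the cytokines by which they help B cells. Effector cells with low CXCR5 and PD-1 follow other routes, such as the Th1 route set by T-bet (gene Tbx21), and can leave the node for inflamed tissue.

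A few arrays stood apart. Results without single arrays are given for named genes that lost their call, for the total counts and for some lists. CXCR5lo PD-1lo replicate 1 stood apart from replicates 2 and 3. The sort genes Cxcr5 and Pdcd1 and cell cycle genes were higher there and nearer to the YFP-positive arrays. Effector genes were split, as the values below show. Tbx21, Il2ra and Anxa1 were highest there and farthest from the YFP-positive arrays, while Ifng, Ccl5, Klrg1, Gzmc and Itgae were lowest there. Arrays of the same number deviated from their group means together. The correlation of these deviations across genes was 0.659, 0.659 and 0.614 for pairs 1, 2 and 3 and negative for all 6 other combinations. Deviations from a group mean cancel out within the group, so negative values elsewhere follow on balance from the positive ones. Same-numbered arrays also shared nearly 1 distribution of values, so differences within each pair are given beside the group means.

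Markers of other cells were checked. Of 15 B cell marker genes on the array, 12 were under log2 4 on all 6 arrays, among them Cd79a, Ms4a1 and Pax5. The 3 others were Cd79b, Cd74 and H2-Ab1. Cd79b, a chain of the B cell receptor, fell in YFP-positive cells, with 2.33, 2.23 and 2.81 in YFP-positive cells and 5.26, 5.30 and 5.36 in CXCR5lo PD-1lo cells (log2 difference -2.86, SE 0.23, adjusted p = 1.7e-06). The class II invariant chain gene Cd74 had 8.81, 8.23 and 7.85 in YFP-positive cells and 10.51, 9.18 and 8.75 in CXCR5lo PD-1lo cells (log2 difference -1.18, SE 0.64, adjusted p = 0.36), and passed as lower with the replicate block (adjusted p = 0.029). The class II gene H2-Ab1 was above log2 4 on CXCR5lo PD-1lo replicate 1 and under it on the 5 other arrays. The summed linear signal of the list was 302 to 517 on the YFP-positive arrays and 535 to 1586 on the CXCR5lo PD-1lo arrays. The 11 germinal centre B and plasma cell markers summed to 7691 to 11660 on the YFP-positive and 14850 to 18940 on the CXCR5lo PD-1lo arrays. Of these 11, 7 were under log2 4 on all 6 arrays, and Irf4 was the highest member on each. The 21 myeloid and dendritic cell markers summed to 24500 to 29650 on the YFP-positive and 28450 to 33800 on the CXCR5lo PD-1lo arrays. Of these 21, 16 were under log2 4 on all 6, and Ctss and Cst3 were the highest on each. Each sum therefore rests mostly on these few genes. Of 5 CD8 T and NK cell markers 4, and of 10 stromal and endothelial markers 9, were under log2 4 on all 6. Some immunoglobulin transcripts were chosen for mention after their values were seen. They were present on the CXCR5lo PD-1lo arrays, which also carried Cd79b, and on YFP-positive replicate 1, which did not. The lambda chain segment Iglv1 had log2 10.01, 2.21 and 2.13 on the YFP-positive arrays, against 10.75, 9.60 and 10.14 on the CXCR5lo PD-1lo arrays, and the antibody joining chain gene Jchain 8.45, 2.22 and 3.06 in YFP-positive cells and 10.53, 7.91 and 7.72 in CXCR5lo PD-1lo cells (adjusted p = 0.35, and 0.034 with the replicate block). In Iglv1 and Jchain, YFP-positive replicate 1 thus resembled the CXCR5lo PD-1lo arrays, and YFP-positive replicates 2 and 3 did not. Probe sets of the heavy chain gene Ighm were split. Some followed this pattern, such as that with 12.05, 2.07 and 2.10 against 12.36, 11.09 and 12.71. Another had 11.70, 10.97 and 11.16 against 11.64, 11.14 and 11.04, and was as high in naive cells. The light chain gene Igk was at the floor on CXCR5lo PD-1lo replicate 3 (2.16) and high on the day 10 array (10.6). The myeloid lysozyme gene Lyz1 was high on replicate 1 of both groups (8.60 in YFP-positive and 8.02 in CXCR5lo PD-1lo cells) and near the floor on the other 4 arrays. All 6 arrays carried Xist (13.77, 14.07 and 13.46 in YFP-positive cells and 13.46, 13.38 and 13.01 in CXCR5lo PD-1lo cells; adjusted p = 0.98, or 0.049 with the pairs as a block) but no Y-linked transcript, whereas the YFP-positive day 10 array carried Y-linked transcripts and no Xist. The naive arrays differed from each other in this. Naive array 1 carried Xist (13.4), and naive array 2 carried Y-linked transcripts and no Xist (2.15). That gap enters the spread of the main fit (limma), so the adjusted p of 0.98 for Xist does not show equal levels. The part of these transcripts in the results was not tested. In sorted bulk samples, fewer cells of a type and less RNA per cell cannot be told apart.

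Of 9930 genes tested, 621 were higher in YFP-positive cells (6.25%) and 408 lower (4.11%), together 1029 (10.4%), at an adjusted p under 0.05 (limma, fitted to all 19 arrays, Benjamini-Hochberg over all genes). The deposited values are log2 values, so a difference of 1 is a 2-fold change, and values near 2 are the floor of the scale: a fold against a group at the floor depends on that floor. Of the 621 higher genes, 232 differed by more than log2 3 and 49 by more than log2 5, and of the 408 lower genes 131 and 54. In 3039 genes (30.6%) the 3 arrays of one group lay wholly above or below the 3 of the other, 1535 higher (15.5%) and 1504 lower (15.1%) in YFP-positive cells. When pairs entered the fit as a block (the replicate block below), 2792 genes passed (28.1%), 1408 higher (14.2%) and 1384 lower (13.9%); 559 of the 621 and 380 of the 408 were among them. The number called higher was 399, 464 and 396 without YFP-positive replicates 1, 2 and 3, and 671, 362 and 381 without CXCR5lo PD-1lo replicates 1, 2 and 3. The number called lower was 301, 296 and 277 in the first 3 of these runs and 381, 269 and 292 in the others.

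Naive cells placed the differences against the level before activation. Among the 621 genes called higher, the naive mean lay below both groups in 526 (and in 6773 of all genes tested) and closer to CXCR5lo PD-1lo than to YFP-positive cells in 597 (96.1%, against 63.1% of all genes tested). Among the 408 called lower, the naive mean lay above both groups in 176, between them in 190 and below both in 42, and was closer to CXCR5lo PD-1lo cells in 298 (73.0%). Over all genes tested it lay above both in 1563 and between them in 1594. Of the genes called lower 45 of 408 were under log2 4 on both naive arrays, against 226 of 621 (36.4%) called higher and 675 (6.8%) of all genes tested. These are descriptions, since the naive arrays come from another tissue and carry no number shared with the pairs.

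**Figure D1:**
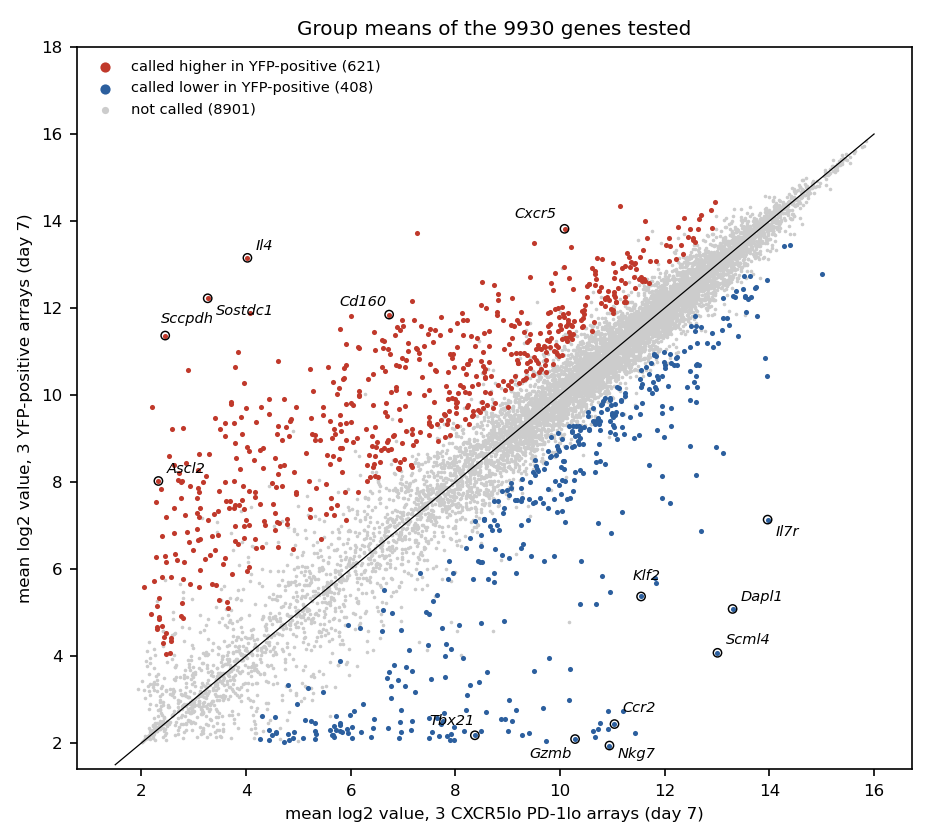
Mean log2 value of each of the 9930 genes on the 3 YFP-positive arrays (vertical axis) and the 3 CXCR5lo PD-1lo arrays of day 7 (horizontal axis), with called genes in colour and the line of equal level. Il4, Sostdc1 and Sccpdh stand at the upper left, and Nkg7, Gzmb and Ccr2 lie at the floor of the YFP-positive axis while Scml4, Dapl1 and Il7r lie to the right.

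The genes of the sort come first because they check the labels, and their differences are no finding. Cxcr5 had log2 13.77, 13.80 and 13.89 on the YFP-positive arrays, against 10.89, 9.91 and 9.45 on the CXCR5lo PD-1lo arrays. Pdcd1, which encodes PD-1, had 14.35, 14.34 and 14.34 in YFP-positive cells and 11.99, 10.84 and 10.60 in CXCR5lo PD-1lo cells. Bcl6 had 14.08, 14.19 and 14.16 in YFP-positive cells and 13.02, 12.73 and 12.30 in CXCR5lo PD-1lo cells. All 3 genes were higher on every YFP-positive array, by log2 3.74, 3.20 and 1.46, and in each the CXCR5lo PD-1lo replicate 1 array was the highest of its group. CXCR5lo PD-1lo cells were well above naive cells in Cxcr5, at 2.26 and 2.39 on the naive arrays, and in Pdcd1, at 5.52 and 6.43.

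The 12 largest rises in YFP-positive cells are given first. Il4, the cytokine of B cell help, had log2 13.23, 13.30 and 12.93 on the YFP-positive arrays, against 4.23, 4.34 and 3.51 on the CXCR5lo PD-1lo arrays. The groups were far apart and each varied by under 1 log2 unit (log2 difference 9.13, SE 0.61, adjusted p = 3.0e-07), and naive cells had 2.06 and 2.32. Sostdc1, a secreted antagonist of BMP and Wnt signals, had log2 11.81, 12.42 and 12.44 on the YFP-positive arrays, against 3.74, 3.04 and 3.02 on the CXCR5lo PD-1lo arrays, and the day 10 array had 13.41. Sccpdh, which encodes a saccharopine dehydrogenase-like oxidoreductase, had 11.21, 11.29 and 11.60 in YFP-positive cells and 2.50, 2.25 and 2.62 in CXCR5lo PD-1lo cells. Both were at or near the floor in CXCR5lo PD-1lo and naive cells and differed by 8.96, SE 0.43, adjusted p = 1.6e-08, and by 8.91, SE 0.26, adjusted p = 8.7e-11.

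Tnc, which encodes the matrix glycoprotein tenascin C, had log2 10.65, 10.88 and 10.18 on the YFP-positive arrays, against 3.05, 2.89 and 2.74 on the CXCR5lo PD-1lo arrays. Cd22, an inhibitory receptor for sialic acid best known from B cells, had 11.27, 10.86 and 10.80 in YFP-positive cells and 5.35, 3.37 and 2.84 in CXCR5lo PD-1lo cells. The groups did not overlap in either gene, as the rule that chose the 12 genes required. On the same arrays Cd79a, Ms4a1 and Pax5 were at or near the floor. Cd74 was not, nor was Cd79b on the CXCR5lo PD-1lo arrays, as given above. Cebpa, a transcription factor best known from myeloid and fat cells, had log2 13.78, 13.74 and 13.66 on the YFP-positive arrays, against 9.31, 5.29 and 7.20 on the CXCR5lo PD-1lo arrays. It was even on the YFP-positive arrays, spread over the CXCR5lo PD-1lo arrays with replicate 1 highest, and at the floor in naive cells. Vdr, the vitamin D receptor, had 10.09, 10.54 and 11.30 in YFP-positive cells and 3.78, 4.19 and 3.39 in CXCR5lo PD-1lo cells. It was highest on the day 10 array, at 12.27. The 5 other genes of the 12 largest rises were the class I gene H2-Q2 (7.79, SE 0.47, adjusted p = 1.3e-07), the actin-binding coronin Coro2b (7.50, SE 0.88, adjusted p = 6.4e-05), the ependymin-related Epdr1 (6.63, SE 0.50, adjusted p = 1.3e-06), Fam43a (6.44, SE 0.32, adjusted p = 1.8e-08) and the recombination repair gene Rad54b (6.33, SE 0.61, adjusted p = 1.1e-05). H2-Q2 has near-identical relatives, so its probe set may read several of them. Epdr1 and Rad54b were lower on the day 10 array, at 7.28 and 6.71, but still above every CXCR5lo PD-1lo array.

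**Figure D2:**
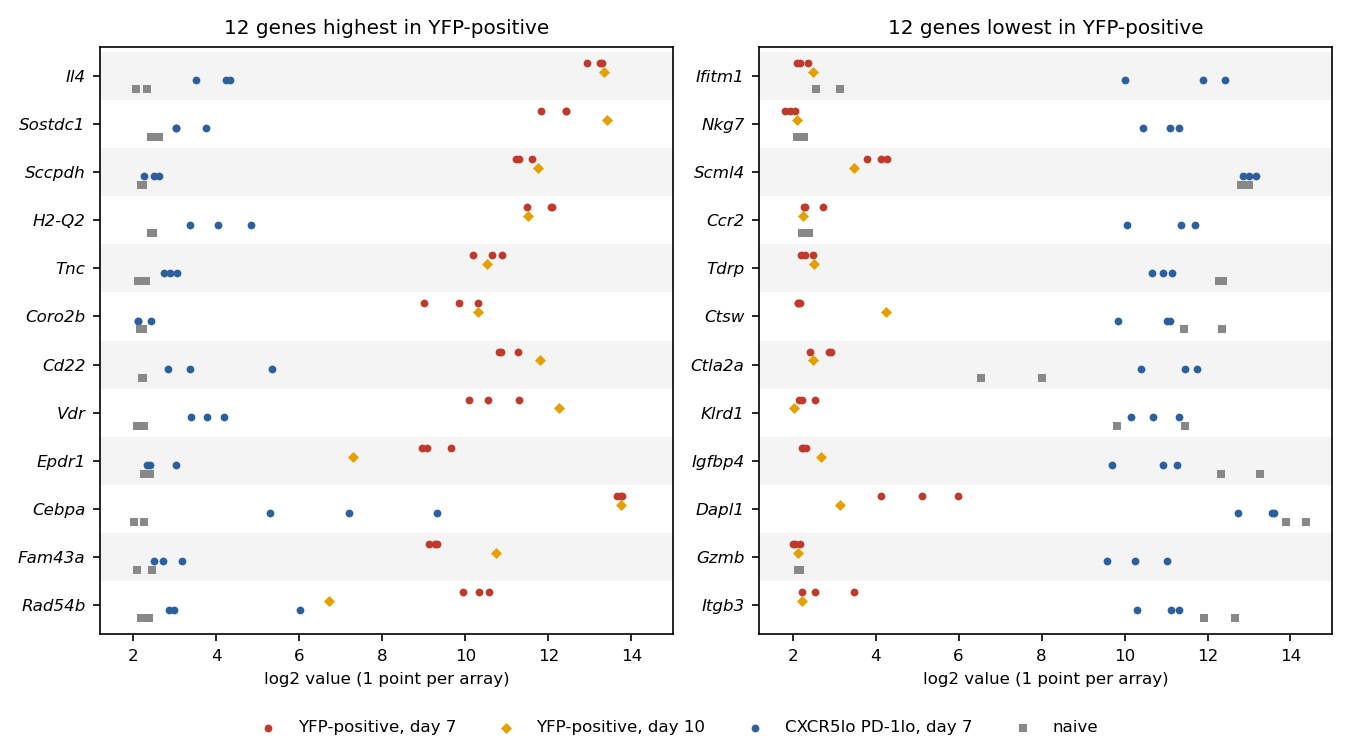
Log2 value on each array of the 12 genes with the largest rises (left) and the 12 with the largest falls (right) in YFP-positive cells, with YFP-positive day 7 and day 10, CXCR5lo PD-1lo and naive arrays from top to bottom within a gene. The genes on the left were near the floor in naive cells, whereas those on the right were either near the floor (Ifitm1, Nkg7, Ccr2, Gzmb) or high (Scml4, Tdrp, Ctsw, Klrd1, Igfbp4, Dapl1, Itgb3) in naive cells, with Ctla2a between.

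Of 17 transcription factors known from Tfh cells that were tested, 5 rose in YFP-positive cells and 0 fell (list median 0.43, against 0.005 over all genes tested). With the replicate block 9 rose and 2 fell. Over all genes tested 6.25% rose and 4.11% fell, and 14.2% and 13.9% with the replicate block. The counts of every list below stand against these shares. Ascl2, a basic helix-loop-helix factor that can induce Cxcr5, had log2 7.46, 7.56 and 9.05 on the YFP-positive arrays, against 2.32, 2.31 and 2.35 on the CXCR5lo PD-1lo arrays. No CXCR5lo PD-1lo or naive array lay above the floor, and the day 10 array had 11.83 (log2 difference 5.70, SE 0.43, adjusted p = 1.3e-06). Pou2af1, a co-activator of octamer-binding factors, had 13.17, 13.20 and 12.78 in YFP-positive cells and 11.99, 11.42 and 10.67 in CXCR5lo PD-1lo cells (log2 difference 1.69, SE 0.34, adjusted p = 0.0048). Tox2, an HMG-box factor, had 14.17, 14.21 and 13.81 in YFP-positive cells and 13.23, 12.29 and 11.61 in CXCR5lo PD-1lo cells and was near the floor in naive cells, at 2.53 and 3.11. Tox2 was thus present in both activated groups and higher in the YFP-positive one (log2 difference 1.69, SE 0.34, adjusted p = 0.0053). Batf, an AP-1 family factor, differed by less (log2 difference 1.03, SE 0.29, adjusted p = 0.037). Tox2 lost its call in a fit of the 6 arrays alone. Batf lost its call without YFP-positive replicate 1, 2 or 3 or CXCR5lo PD-1lo replicate 2 or 3 (log2 differences 0.92 to 1.21 and adjusted p up to 0.16 over the 6 runs that each left out 1 array), and with no filter on low values and after median centring. The fifth called member was Cebpa, described above. Irf4, a factor induced by receptor signalling, had 12.85, 12.92 and 12.30 in YFP-positive cells and 13.74, 14.04 and 13.70 in CXCR5lo PD-1lo cells, with no overlap. It missed the threshold (adjusted p = 0.062) and passed as lower with the replicate block (adjusted p = 0.016). Irf4 also passed in a fit of the 6 arrays alone and with the day 10 array added. The same held with averaged probe sets, after quantile normalization and with a trended robust spread.

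Among 10 cytokine genes tested, Il4 and Il21 rose and Ifng fell; the number that fell was 1, 1 and 2 without YFP-positive replicates 1, 2 and 3, and 1, 1 and 1 without CXCR5lo PD-1lo replicates 1, 2 and 3, and 3 with the replicate block. Il21, which drives germinal centre B cells and plasma cells, had log2 13.50, 13.90 and 13.10 on the YFP-positive arrays, against 10.85, 9.35 and 8.28 on the CXCR5lo PD-1lo arrays. CXCR5lo PD-1lo cells therefore expressed Il21 well above naive cells (2.37 and 2.18), and YFP-positive cells more (log2 difference 4.01, SE 0.53, adjusted p = 0.0002). Ifng, the Th1 cytokine, had log2 2.32, 2.14 and 2.40 on the YFP-positive arrays, against 6.15, 7.20 and 8.11 on the CXCR5lo PD-1lo arrays. It was at the floor in YFP-positive and naive cells (log2 difference -4.87, SE 0.64, adjusted p = 0.0002). The within-pair differences were 9.01, 8.96 and 9.41 for Il4, 2.65, 4.55 and 4.82 for Il21 and -3.83, -5.06 and -5.71 for Ifng. Of 3 chemokine genes tested, Ccl5, a chemokine of effector T cells, fell (log2 difference -6.21, SE 1.02, adjusted p = 0.0013), with 2.66, 2.11 and 2.07 in YFP-positive cells and 5.78, 10.14 and 9.55 in CXCR5lo PD-1lo cells. It was lowest on CXCR5lo PD-1lo replicate 1 among its group. Cxcl10, a chemokine induced by interferon, had 4.65, 6.90 and 8.04 in YFP-positive cells and 3.33, 3.61 and 5.38 in CXCR5lo PD-1lo cells; it missed the threshold (adjusted p = 0.051) and passed as higher with the replicate block (adjusted p = 0.03) and in several of the other fits, among them that without YFP-positive replicate 1.

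Genes of the cytotoxic granule and of NK cell receptors were among the largest falls. Nkg7, a granule membrane protein of cytotoxic cells, had log2 1.94, 2.06 and 1.82 on the YFP-positive arrays, against 11.09, 11.31 and 10.44 on the CXCR5lo PD-1lo arrays. Gzmb, the granule protease granzyme B, had 2.02, 2.06 and 2.19 in YFP-positive cells and 10.26, 11.03 and 9.57 in CXCR5lo PD-1lo cells. Both were at the floor on all YFP-positive and naive arrays and high on all CXCR5lo PD-1lo arrays, with log2 differences of -9.003, SE 0.24, adjusted p = 4.1e-11, and of -8.20, SE 0.29, adjusted p = 6.8e-10. Their promoters are printed with that of Il4, the largest rise, as examples of genes at opposite ends of the contrast. Shown are 250 bases upstream of the start, 5′ to 3′ on the gene's strand, from RefSeq on GRCm38.p6, with capitals marking matches to 4 motifs named after them.
Il4 promoter, chr11:53618666-53618915, minus strand: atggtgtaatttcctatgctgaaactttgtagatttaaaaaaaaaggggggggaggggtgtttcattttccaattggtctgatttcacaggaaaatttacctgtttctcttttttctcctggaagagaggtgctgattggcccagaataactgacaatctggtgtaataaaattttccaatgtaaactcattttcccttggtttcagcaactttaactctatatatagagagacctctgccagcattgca
Nkg7 promoter, chr7:43436888-43437137, plus strand: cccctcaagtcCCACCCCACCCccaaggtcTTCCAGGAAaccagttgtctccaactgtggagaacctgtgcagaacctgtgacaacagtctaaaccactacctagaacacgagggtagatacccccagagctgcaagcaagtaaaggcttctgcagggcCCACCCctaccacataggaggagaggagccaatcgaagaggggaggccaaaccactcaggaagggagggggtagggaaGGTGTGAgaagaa
Gzmb promoter, chr14:56262335-56262584, minus strand: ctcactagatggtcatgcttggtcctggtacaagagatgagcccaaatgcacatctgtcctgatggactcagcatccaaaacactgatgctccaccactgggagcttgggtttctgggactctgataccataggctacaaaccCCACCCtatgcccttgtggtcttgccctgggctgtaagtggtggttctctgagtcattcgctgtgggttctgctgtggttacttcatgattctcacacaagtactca
The motifs, searched on both strands, were the T-box half-site GGTGTGA, the KLF-type CCACCC, the E-box CAGCTG and the BCL6-type TTCCTNGAA. The Nkg7 window held 1 T-box, 3 KLF-type (of which 2 overlap in 1 run of capitals) and 1 BCL6-type match, that of Gzmb 1 KLF-type match and that of Il4 none. Over the promoters of genes called higher (499 of 621 genes matched by symbol, 627 windows) the share with a match was 3.03% for the T-box, 31.1% for the KLF-type, 13.1% for the E-box and 1.44% for the BCL6-type motif. Over those of genes called lower (301 of 408 genes, 421 windows) it was 3.8%, 39.7%, 15.0% and 2.38% in the same order. Over all genes tested (8147 genes, 10373 windows) it was 2.71%, 31.8%, 11.2% and 0.993%. Between 0 and 11 matches of a motif overlapped a match of another. A match is a description of the letters, not a binding site.

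Of 15 cytotoxic granule genes tested, 5 fell and 0 rose: Nkg7, Gzmb, Gzma, Gzmc and Ctsw. With the replicate block 6 fell and 2 rose. Gzma, granzyme A, was lower but not absent, with log2 8.84, 7.80 and 7.75 on the YFP-positive arrays, against 12.48, 12.79 and 10.58 on the CXCR5lo PD-1lo arrays (log2 difference -3.82, SE 0.57, adjusted p = 0.00056). Gzmc had 2.27, 2.20 and 2.26 in YFP-positive cells and 5.16, 5.98 and 6.36 in CXCR5lo PD-1lo cells. Ctsw, a cathepsin of cytotoxic cells, had 2.12, 2.13 and 2.18 in YFP-positive cells and 9.85, 11.11 and 11.03 in CXCR5lo PD-1lo cells and was high in naive cells too, at 12.35 and 11.43. Both kinds of gene thus met in this list, with Nkg7 and Gzmb above naive cells in CXCR5lo PD-1lo cells and Ctsw below naive cells in YFP-positive cells. The granule protein Lamp1 and the protease inhibitor Cst7 did not pass (0.53, SE 0.33, adjusted p = 0.47, and 1.07, SE 0.43, adjusted p = 0.17), but passed as higher with the replicate block (adjusted p = 0.024 and 0.011). Both also passed after quantile normalization.

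Of 6 NK receptor genes tested 5 fell (4 with the replicate block), the list median being -3.31. Klrd1, which encodes CD94, had log2 2.23, 2.15 and 2.54 on the YFP-positive arrays, against 10.16, 11.32 and 10.68 on the CXCR5lo PD-1lo arrays. The naive arrays were as high as the CXCR5lo PD-1lo arrays, at 11.45 and 9.81, so the YFP-positive cells were the ones below the naive level. Klrk1, which encodes NKG2D, had 2.12, 2.10 and 2.15 in YFP-positive cells and 6.01, 7.05 and 4.99 in CXCR5lo PD-1lo cells and was at the floor in naive cells (log2 difference -3.89, SE 0.37, adjusted p = 1.0e-05). The CD94 partner Klrc1 (-3.22, SE 0.65, adjusted p = 0.0052) and the surface protein Cd7 (-3.31, SE 0.69, adjusted p = 0.0063) fell too. Klrc1 lost its call in a fit of the 6 arrays alone. Cd7 lost its call in a fit of the 6 arrays alone. Klrg1, a receptor of late effector cells, had 2.27, 2.14 and 2.48 in YFP-positive cells and 2.40, 7.18 and 7.24 in CXCR5lo PD-1lo cells: it was high on 2 of 3 CXCR5lo PD-1lo arrays and at the floor on replicate 1. Klrg1 lost its call without YFP-positive replicate 1, 2 or 3 or CXCR5lo PD-1lo replicate 2 or 3 (log2 differences -4.91 to -2.49 and adjusted p up to 0.15 over the 6 runs that each left out 1 array), with the replicate block (adjusted p = 0.11), and in a fit of the 6 arrays alone and with no filter on low values. The NK cell markers of the marker list were under log2 4 on all 6 arrays, as given above. The T cell receptor gamma segment Trgv4, chosen for mention after its values were seen, had 2.32, 2.32 and 2.02 in YFP-positive cells and 9.86, 9.46 and 8.89 in CXCR5lo PD-1lo cells. Another of its probe sets was alike, with 2.13, 2.21 and 2.04 against 9.49, 9.62 and 8.95. A further one was weaker, with 2.61, 2.34 and 2.69 against 3.80, 5.545 and 4.20. The gamma segment Trgv1 had 2.02, 2.07 and 2.09 against 4.025, 10.10 and 9.555, and was thus low on CXCR5lo PD-1lo replicate 1.

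Of 16 transcription factors of effector and memory cells, 7 fell and 0 rose (list median -0.57), and with the replicate block 7 fell and 2 rose. Tbx21, which encodes T-bet, had log2 2.10, 2.11 and 2.33 on the YFP-positive arrays, against 9.72, 8.39 and 7.01 on the CXCR5lo PD-1lo arrays. It was at the floor in YFP-positive and naive cells, and its CXCR5lo PD-1lo values were spread, with replicate 1 highest (log2 difference -6.20, SE 0.53, adjusted p = 3.5e-06). Runx3, a partner of T-bet, had 9.54, 8.96 and 8.62 in YFP-positive cells and 12.24, 11.96 and 11.72 in CXCR5lo PD-1lo cells (log2 difference -2.94, SE 0.46, adjusted p = 0.00078), and the day 10 array had 3.71. Id2, an inhibitor of E-proteins, had 11.60, 11.44 and 11.003 in YFP-positive cells and 13.63, 13.66 and 12.92 in CXCR5lo PD-1lo cells (log2 difference -2.05, SE 0.34, adjusted p = 0.0013). Hopx (-1.996, SE 0.36, adjusted p = 0.0023) and the Kruppel-like Klf6 (-1.39, SE 0.27, adjusted p = 0.0038) also fell. Prdm1 encodes Blimp-1, the factor that opposes BCL6. It was at the floor on all YFP-positive arrays and had 8.12, 5.48 and 4.24 on the CXCR5lo PD-1lo arrays (log2 difference -3.71, SE 0.92, adjusted p = 0.019). Prdm1 lost its call without YFP-positive replicate 1, 2 or 3 or CXCR5lo PD-1lo replicate 1 (log2 differences -4.56 to -2.62 and adjusted p up to 0.062 over the 6 runs that each left out 1 array), with the replicate block (adjusted p = 0.0502), and in a fit of the 6 arrays alone, with no filter on low values and after quantile normalization.

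A further group of genes that fell was high in naive cells and marks resting, recirculating T cells. Of 18 such genes tested 9 fell and 0 rose, with 13 and 0 with the replicate block; the list median was -2.13, and the list median was negative in every pair (-1.71, -2.15 and -2.54). Klf2, a factor that keeps T cells quiescent and switches on homing receptors, had log2 5.12, 6.05 and 4.93 on the YFP-positive arrays, against 11.68, 11.49 and 11.47 on the CXCR5lo PD-1lo arrays. Naive cells had 12.02 and 11.55, close to the CXCR5lo PD-1lo arrays (log2 difference -6.18, SE 0.36, adjusted p = 8.4e-08). S1pr1, the receptor by which lymphocytes leave the node, had 5.50, 5.02 and 5.09 in YFP-positive cells and 10.44, 10.35 and 10.36 in CXCR5lo PD-1lo cells. Il7r, which receives the survival cytokine IL-7, had 7.72, 7.05 and 6.64 in YFP-positive cells and 13.98, 14.29 and 13.63 in CXCR5lo PD-1lo cells. Both followed the same order, with CXCR5lo PD-1lo cells near naive cells (11.13 and 9.88 for S1pr1 and 14.51 and 14.21 for Il7r) and YFP-positive cells far below (-5.18, SE 0.42, adjusted p = 2.3e-06, and -6.83, SE 0.40, adjusted p = 8.4e-08). The repressor Bach2 (-4.58, SE 0.44, adjusted p = 1.0e-05), the glucocorticoid-induced Tsc22d3 (-5.50, SE 0.65, adjusted p = 7.0e-05) and the kinase inhibitor Pik3ip1 (-2.76, SE 0.33, adjusted p = 7.4e-05) fell as well.

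Within the 12 largest falls, 7 were high in naive cells. Scml4, a Polycomb-related gene, had log2 4.13, 3.80 and 4.28 on the YFP-positive arrays, against 12.86, 13.17 and 12.99 on the CXCR5lo PD-1lo arrays, and naive cells had 12.996 and 12.81. Igfbp4, which binds insulin-like growth factors, had 2.33, 2.24 and 2.26 in YFP-positive cells and 9.69, 11.27 and 10.93 in CXCR5lo PD-1lo cells, and naive cells had 13.26 and 12.33. Dapl1, a gene of resting T cells, had 5.12, 4.14 and 5.99 in YFP-positive cells and 12.73, 13.56 and 13.60 in CXCR5lo PD-1lo cells, and naive cells had 14.37 and 13.88. In all 3 the YFP-positive arrays lay more than 6 log2 units under every CXCR5lo PD-1lo and naive array. Tdrp (-8.58, SE 0.56, adjusted p = 2.6e-07) and the integrin beta 3 gene Itgb3 (-8.16, SE 0.75, adjusted p = 8.2e-06) behaved likewise. Ctla2a, a protease inhibitor with a near-identical neighbour that its probe set may also read, had 2.88, 2.42 and 2.92 in YFP-positive cells and 11.75, 11.46 and 10.39 in CXCR5lo PD-1lo cells, and naive cells had 8.02 and 6.55.

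Receptors that guide cells out of the node or within it moved both ways. Of 9 tested 2 rose and 3 fell (3 and 4 with the replicate block). S1pr2, a sphingosine-1-phosphate receptor that holds cells in germinal centres, had log2 10.35, 9.80 and 9.86 on the YFP-positive arrays, against 7.66, 7.21 and 7.34 on the CXCR5lo PD-1lo arrays. It ran opposite to S1pr1, being higher on every YFP-positive array (log2 difference 2.60, SE 0.34, adjusted p = 0.0002). Ptger2, a prostaglandin E2 receptor, had 11.38, 11.28 and 11.02 in YFP-positive cells and 8.96, 6.96 and 6.81 in CXCR5lo PD-1lo cells (log2 difference 3.65, SE 0.55, adjusted p = 0.00062). S1pr4 (-1.63, SE 0.31, adjusted p = 0.0036) and Gpr18 (-3.65, SE 0.41, adjusted p = 4.7e-05) fell. The oxysterol receptor gene Gpr183, which draws cells to the edge of the follicle, had 13.40, 13.05 and 13.01 in YFP-positive cells and 12.72, 12.12 and 12.35 in CXCR5lo PD-1lo cells. It missed the threshold (adjusted p = 0.053) and passed as higher with the replicate block (adjusted p = 0.019). Gpr183 also passed without CXCR5lo PD-1lo replicate 1, with other filters on low values, after quantile normalization and with a trended robust spread.

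Of 8 chemokine receptors tested beside Cxcr5, 4 fell and 0 rose (4 and 1 with the replicate block). Ccr2, a receptor for inflammatory chemokines, had log2 2.28, 2.31 and 2.72 on the YFP-positive arrays, against 11.70, 11.36 and 10.06 on the CXCR5lo PD-1lo arrays. YFP-positive and naive arrays were at the floor (log2 difference -8.61, SE 0.47, adjusted p = 4.7e-08). Ccr7, which holds cells in the T cell zone, had 9.38, 8.42 and 8.19 in YFP-positive cells and 13.42, 13.02 and 12.88 in CXCR5lo PD-1lo cells, and naive cells had 13.93 and 12.94. YFP-positive cells were thus below both other groups, and the day 10 array was lower again, at 3.70 (log2 difference -4.44, SE 0.67, adjusted p = 0.00062). Ccr8 (-2.77, SE 0.46, adjusted p = 0.0013) and Cxcr6 (-1.96, SE 0.58, adjusted p = 0.047) fell too. Cxcr6 lost its call without YFP-positive replicate 2 or 3 or CXCR5lo PD-1lo replicate 1 or 2 (log2 differences -2.61 to -1.48 and adjusted p up to 0.19 over the 6 runs that each left out 1 array), and in a fit of the 6 arrays alone, with no filter on low values and after median centring. Cxcr4, which draws cells to the germinal centre's dark zone, had 13.62, 13.61 and 12.94 in YFP-positive cells and 13.15, 12.85 and 11.94 in CXCR5lo PD-1lo cells (adjusted p = 0.31, and 0.033 with the replicate block).

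Of 14 integrins and adhesion molecules 6 fell and 0 rose (8 and 1 with the replicate block). Itgae, the alpha chain that binds E-cadherin, had log2 2.22, 2.18 and 2.18 on the YFP-positive arrays, against 8.06, 10.42 and 9.36 on the CXCR5lo PD-1lo arrays. It was at the floor on all YFP-positive arrays and near it on the naive arrays, 2.23 and 2.92 (log2 difference -7.09, SE 0.48, adjusted p = 3.3e-07). Itga4, the alpha chain of gut and inflamed-tissue homing integrins, had 8.33, 7.66 and 8.48 in YFP-positive cells and 12.40, 12.47 and 12.89 in CXCR5lo PD-1lo cells and was highest in naive cells, at 14.01 and 13.32 (log2 difference -4.43, SE 0.34, adjusted p = 1.4e-06). Its partner Itgb7 (-1.31, SE 0.27, adjusted p = 0.0057), Itga6 (-1.97, SE 0.42, adjusted p = 0.0069) and the selectin ligand Selplg (-1.61, SE 0.27, adjusted p = 0.0014) fell by less.

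Co-signalling receptors did not all move one way. Of 17 members of the CD28 family and inhibitory receptors 4 rose (Cd160, Pdcd1lg2, Lag3 and Cd22) and 4 fell; the number that fell was 3, 2 and 2 without YFP-positive replicates 1, 2 and 3, and 4, 2 and 2 without CXCR5lo PD-1lo replicates 1, 2 and 3, and 6 with the replicate block. Cd160, a receptor for the TNF receptor family member HVEM, had log2 12.08, 11.82 and 11.64 on the YFP-positive arrays, against 6.86, 6.82 and 6.53 on the CXCR5lo PD-1lo arrays. All YFP-positive arrays lay more than 4 log2 units above all CXCR5lo PD-1lo arrays (log2 difference 5.11, SE 0.34, adjusted p = 3.0e-07). Pdcd1lg2, a ligand of PD-1, had 10.81, 10.29 and 10.55 in YFP-positive cells and 8.56, 6.88 and 7.45 in CXCR5lo PD-1lo cells (log2 difference 2.92, SE 0.44, adjusted p = 0.00063). Lag3, an inhibitory receptor for class II molecules, had 11.71, 11.63 and 11.61 in YFP-positive cells and 10.57, 9.62 and 10.27 in CXCR5lo PD-1lo cells and was at the floor in naive cells (log2 difference 1.496, SE 0.31, adjusted p = 0.0058). Among those that fell, Havcr2, which encodes the inhibitory receptor TIM-3, had 2.15, 2.14 and 2.14 in YFP-positive cells and 8.20, 6.80 and 4.18 in CXCR5lo PD-1lo cells (log2 difference -4.25, SE 0.66, adjusted p = 0.00082). It was at the floor on all YFP-positive arrays, whereas Cd72 was reduced (-3.51, SE 0.43, adjusted p = 0.00011). Inhibitory receptors thus included members higher and members lower in YFP-positive cells.

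Of 16 TNF family ligands and receptors 3 rose and 1 fell (18.8% and 6.25%, against 6.25% and 4.11% of all genes tested). With the replicate block 6 rose and 2 fell, against 14.2% and 13.9% of all genes tested. Tnfsf8, which encodes CD30 ligand, had log2 12.20, 12.18 and 11.37 on the YFP-positive arrays, against 10.16, 8.96 and 8.62 on the CXCR5lo PD-1lo arrays (log2 difference 2.67, SE 0.57, adjusted p = 0.0072). Tnfsf14, which encodes LIGHT, a further ligand of HVEM, had 12.39, 12.53 and 12.39 in YFP-positive cells and 10.62, 10.37 and 9.74 in CXCR5lo PD-1lo cells (log2 difference 2.19, SE 0.42, adjusted p = 0.0034). Both were lower in naive than in either activated group. Tnfrsf21, which encodes death receptor 6, had 5.81, 7.08 and 5.99 in YFP-positive cells and 2.41, 2.18 and 2.76 in CXCR5lo PD-1lo cells and was at the floor in CXCR5lo PD-1lo and naive cells (log2 difference 3.84, SE 0.60, adjusted p = 0.00081). The 1 member that fell was Tnfrsf25, which encodes death receptor 3 (-3.75, SE 0.95, adjusted p = 0.021). Tnfrsf25 lost its call without YFP-positive replicate 1 or 2 or CXCR5lo PD-1lo replicate 2 or 3 (log2 differences -4.09 to -3.25 and adjusted p up to 0.099 over the 6 runs that each left out 1 array), and with no filter on low values. The RANK ligand gene Tnfsf11 had 13.39, 13.49 and 13.12 in YFP-positive cells and 12.61, 12.17 and 11.89 in CXCR5lo PD-1lo cells (adjusted p = 0.067, and 0.019 with the replicate block). It also passed as higher in a fit of the 6 arrays alone, with averaged probe sets and with a trended robust spread.

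Of 25 cytokine receptors 5 fell and 1 rose (20.0% and 4.0%, against 4.11% and 6.25% of all genes tested). With the replicate block 10 fell and 0 rose, against 13.9% and 14.2% of all genes tested. Il18rap and Il18r1 form the receptor for IL-18, a co-stimulus of interferon gamma. Il18rap had log2 3.47, 2.34 and 3.12 on the YFP-positive arrays, against 10.07, 9.10 and 7.93 on the CXCR5lo PD-1lo arrays. Il18r1 had 6.28, 6.28 and 4.93 in YFP-positive cells and 10.94, 11.02 and 10.44 in CXCR5lo PD-1lo cells. Both chains fell, but only Il18rap was at the floor in naive cells, at 2.23 and 2.31, while Il18r1 had 10.05 and 9.56 there (-6.06, SE 0.54, adjusted p = 5.7e-06, and -4.97, SE 0.50, adjusted p = 1.6e-05). Il2ra, the high-affinity chain of the IL-2 receptor, had 2.13, 2.13 and 3.06 in YFP-positive cells and 9.95, 6.97 and 6.24 in CXCR5lo PD-1lo cells (log2 difference -5.28, SE 0.70, adjusted p = 0.0002). It was highest on CXCR5lo PD-1lo replicate 1. Il4ra, the receptor for IL-4, had 7.25, 7.20 and 7.49 in YFP-positive cells and 9.58, 9.89 and 10.35 in CXCR5lo PD-1lo cells and was highest in naive cells, at 11.13 and 11.38 (log2 difference -2.63, SE 0.27, adjusted p = 2.3e-05); it thus fell in the cells in which Il4 rose. The 1 receptor that rose was Il1r2, the decoy receptor for IL-1, with 10.04, 8.78 and 9.17 in YFP-positive cells and 9.41, 4.62 and 3.35 in CXCR5lo PD-1lo cells (log2 difference 3.53, SE 1.06, adjusted p = 0.0499). On CXCR5lo PD-1lo replicate 1 it lay within the YFP-positive range. Il1r2 lost its call without YFP-positive replicate 1, 2 or 3 or CXCR5lo PD-1lo replicate 2 or 3 (log2 differences 2.31 to 5.34 and adjusted p up to 0.24 over the 6 runs that each left out 1 array), with the replicate block (adjusted p = 0.088), and in a fit of the 6 arrays alone and with no filter on low values.

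Of 17 S100, annexin, galectin and related cytoskeletal genes, which mark effector and memory cells, 8 fell and 0 rose; the number that fell was 7, 5 and 5 without YFP-positive replicates 1, 2 and 3, and 5, 5 and 7 without CXCR5lo PD-1lo replicates 1, 2 and 3. Anxa1, annexin A1, had log2 2.62, 2.15 and 3.64 on the YFP-positive arrays, against 11.85, 9.53 and 7.67 on the CXCR5lo PD-1lo arrays. It was near the floor on YFP-positive and naive arrays and spread over the CXCR5lo PD-1lo arrays (log2 difference -6.88, SE 0.80, adjusted p = 5.8e-05). Emp3, a small membrane protein, had 11.43, 10.61 and 10.52 in YFP-positive cells and 14.01, 13.81 and 13.92 in CXCR5lo PD-1lo cells, with 14.13 and 13.73 in naive cells (log2 difference -3.07, SE 0.31, adjusted p = 1.9e-05). The scaffold gene Ahnak (-3.51, SE 0.44, adjusted p = 0.00012) and the intermediate filament gene Vim (-2.24, SE 0.38, adjusted p = 0.0014) fell too. Lgals3, galectin-3, had 2.89, 2.26 and 6.70 in YFP-positive cells and 11.31, 10.03 and 8.02 in CXCR5lo PD-1lo cells (log2 difference -5.84, SE 1.10, adjusted p = 0.0033). Lgals3 lost its call with the replicate block (adjusted p = 0.071).

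Of 26 interferon-induced genes 11 fell and 0 rose (list median -0.89); the number that fell was 7, 6 and 7 without YFP-positive replicates 1, 2 and 3, and 10, 5 and 5 without CXCR5lo PD-1lo replicates 1, 2 and 3. With the replicate block 16 fell and 1 rose. The 3 largest falls were in neighbouring relatives, membrane proteins that restrict virus entry. Ifitm1 had log2 2.18, 2.11 and 2.38 on the YFP-positive arrays, against 12.42, 11.89 and 10.02 on the CXCR5lo PD-1lo arrays. Ifitm2 had 4.79, 3.12 and 3.16 in YFP-positive cells and 11.65, 10.44 and 8.48 in CXCR5lo PD-1lo cells. Ifitm3 had 6.88, 4.70 and 5.45 in YFP-positive cells and 12.84, 11.88 and 10.78 in CXCR5lo PD-1lo cells. In each, replicate 1 was the highest and replicate 3 the lowest CXCR5lo PD-1lo array, and naive cells were at or near the YFP-positive level (3.15 and 2.56 for Ifitm1). Other members behaved differently: Oas2, an antiviral enzyme, had 1.89, 2.22 and 3.38 in YFP-positive cells and 7.42, 6.17 and 9.69 in CXCR5lo PD-1lo cells, with 7.92 and 8.08 in naive cells (log2 difference -5.27, SE 1.12, adjusted p = 0.0072). Bst2, which tethers virus particles, fell by less (-1.44, SE 0.24, adjusted p = 0.0012). The mean log2 level of the list was 9.37, 9.17 and 9.38 on the YFP-positive arrays and 10.95, 11.07 and 11.01 on the CXCR5lo PD-1lo arrays, with 9.24 and 9.36 on the naive arrays.

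Early response genes of receptor signalling were lower or did not pass in the main fit. Of 24 such genes 4 fell and 0 rose. The number that fell was 2, 3 and 1 without YFP-positive replicates 1, 2 and 3. It was 4, 2 and 2 without CXCR5lo PD-1lo replicates 1, 2 and 3. Under the replicate block 8 fell and 1 rose. Dusp2, a phosphatase of MAP kinases, had log2 9.59, 9.87 and 9.77 on the YFP-positive arrays, against 11.34, 12.20 and 12.28 on the CXCR5lo PD-1lo arrays (log2 difference -2.19, SE 0.34, adjusted p = 0.00072). Myc, which drives growth, had 6.56, 8.59 and 7.41 in YFP-positive cells and 9.58, 10.10 and 9.36 in CXCR5lo PD-1lo cells (log2 difference -2.16, SE 0.51, adjusted p = 0.015). Myc lost its call without YFP-positive replicate 1 or 3 or CXCR5lo PD-1lo replicate 2 (log2 differences -2.69 to -1.68 and adjusted p up to 0.076 over the 6 runs that each left out 1 array), and in a fit of the 6 arrays alone and with no filter on low values. Junb had 8.44, 8.27 and 9.16 in YFP-positive cells and 9.45, 10.35 and 11.48 in CXCR5lo PD-1lo cells and missed the threshold (adjusted p = 0.12, and 0.028 with the replicate block). Among 7 regulators of G protein signalling, which damp chemokine receptors, Rgs16 rose and Rgs1 and Rgs14 fell. Rgs16 had log2 10.64, 10.66 and 10.64 on the YFP-positive arrays, against 6.61, 5.49 and 7.68 on the CXCR5lo PD-1lo arrays, with 12.80 on the day 10 array (log2 difference 4.06, SE 0.49, adjusted p = 9.1e-05). Rgs1 had 10.45, 10.64 and 10.22 in YFP-positive cells and 11.77, 12.08 and 11.99 in CXCR5lo PD-1lo cells (log2 difference -1.51, SE 0.33, adjusted p = 0.0083). Rgs1 lost its call with the day 10 array added. The same family thus held a gene higher and genes lower in YFP-positive cells. Rgs14 lost its call without YFP-positive replicate 1, 2 or 3 or CXCR5lo PD-1lo replicate 2 or 3 (log2 differences -1.31 to -1.14 and adjusted p up to 0.1 over the 6 runs that each left out 1 array), and after median centring.

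Of 10 regulatory T cell genes 3 fell (Il2ra, Ikzf4 and Capg) and 1 rose (Ikzf2); with the replicate block 5 fell and 1 rose. Ikzf4, which encodes the zinc finger protein Eos, had log2 2.10, 2.40 and 1.88 on the YFP-positive arrays, against 7.09, 7.74 and 7.64 on the CXCR5lo PD-1lo arrays, and naive cells had 7.90 and 6.96 (log2 difference -5.37, SE 0.53, adjusted p = 1.5e-05). Ikzf2, its relative Helios, had 13.68, 13.76 and 13.41 in YFP-positive cells and 12.69, 12.78 and 12.17 in CXCR5lo PD-1lo cells, and naive cells had 8.26 and 8.33. It was higher in both activated groups than in naive cells and higher again in YFP-positive cells (log2 difference 1.07, SE 0.30, adjusted p = 0.037). Ikzf2 lost its call without YFP-positive replicate 1, 2 or 3 or CXCR5lo PD-1lo replicate 1, 2 or 3 (log2 differences 0.89 to 1.19 and adjusted p up to 0.18 over the 6 runs that each left out 1 array), and with no filter on low values and after median centring.

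Cell cycle genes rose as a group, with the size depending on the pair. Of 27 mitosis genes 23 rose and 0 fell, and of 28 DNA replication genes 20 rose and 0 fell, with list medians of 3.57 and 1.98. The mean log2 level of the mitosis list was 11.78, 10.79 and 11.83 on the YFP-positive arrays and 10.22, 7.35 and 6.34 on the CXCR5lo PD-1lo arrays. The YFP-positive arrays were close together, while CXCR5lo PD-1lo replicate 1 stood well above replicates 2 and 3. Naive cells had 3.86 and 4.23, and the YFP-positive day 10 array had 8.83, below all day 7 YFP-positive arrays and below CXCR5lo PD-1lo replicate 1. The median differences within pairs 1, 2 and 3 were 1.504, 3.35 and 5.36 for mitosis and 0.96, 2.03 and 3.02 for DNA replication genes.

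Ncapg, a condensin subunit, had log2 13.34, 13.27 and 13.57 on the YFP-positive arrays, against 11.91, 9.94 and 8.77 on the CXCR5lo PD-1lo arrays (log2 difference 3.19, SE 0.55, adjusted p = 0.0017). Kif20a, a kinesin of cell division, had 11.50, 10.99 and 11.62 in YFP-positive cells and 9.94, 6.59 and 6.58 in CXCR5lo PD-1lo cells (log2 difference 3.67, SE 0.69, adjusted p = 0.0032). Tyms, which makes thymidylate, had 8.17, 6.38 and 8.15 in YFP-positive cells and 4.62, 2.88 and 3.56 in CXCR5lo PD-1lo cells (log2 difference 3.88, SE 0.50, adjusted p = 0.00016). Lig1, the replicative DNA ligase, had 11.58, 11.41 and 11.42 in YFP-positive cells and 9.88, 8.39 and 7.65 in CXCR5lo PD-1lo cells (log2 difference 2.83, SE 0.45, adjusted p = 0.00095). In each of these the groups did not overlap and replicate 1 was the highest CXCR5lo PD-1lo array. The calls depended on the arrays and the fit. The number of mitosis genes that rose was 10, 21 and 13 without YFP-positive replicates 1, 2 and 3, and 27, 9 and 10 without CXCR5lo PD-1lo replicates 1, 2 and 3, 13 with the replicate block, 12 with the day 10 array added, 11 with no filter on low values and 2 in a fit of the 6 arrays alone. For DNA replication genes it was 14, 17 and 14 without YFP-positive replicates 1, 2 and 3, and 25, 11 and 11 without CXCR5lo PD-1lo replicates 1, 2 and 3, 15 with the replicate block, 16 with no filter on low values, 6 with the day 10 array added and 9 in a fit of the 6 arrays alone. Ncapg lost its call in a fit of the 6 arrays alone. Kif20a lost its call in a fit of the 6 arrays alone.

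**Figure D3:**
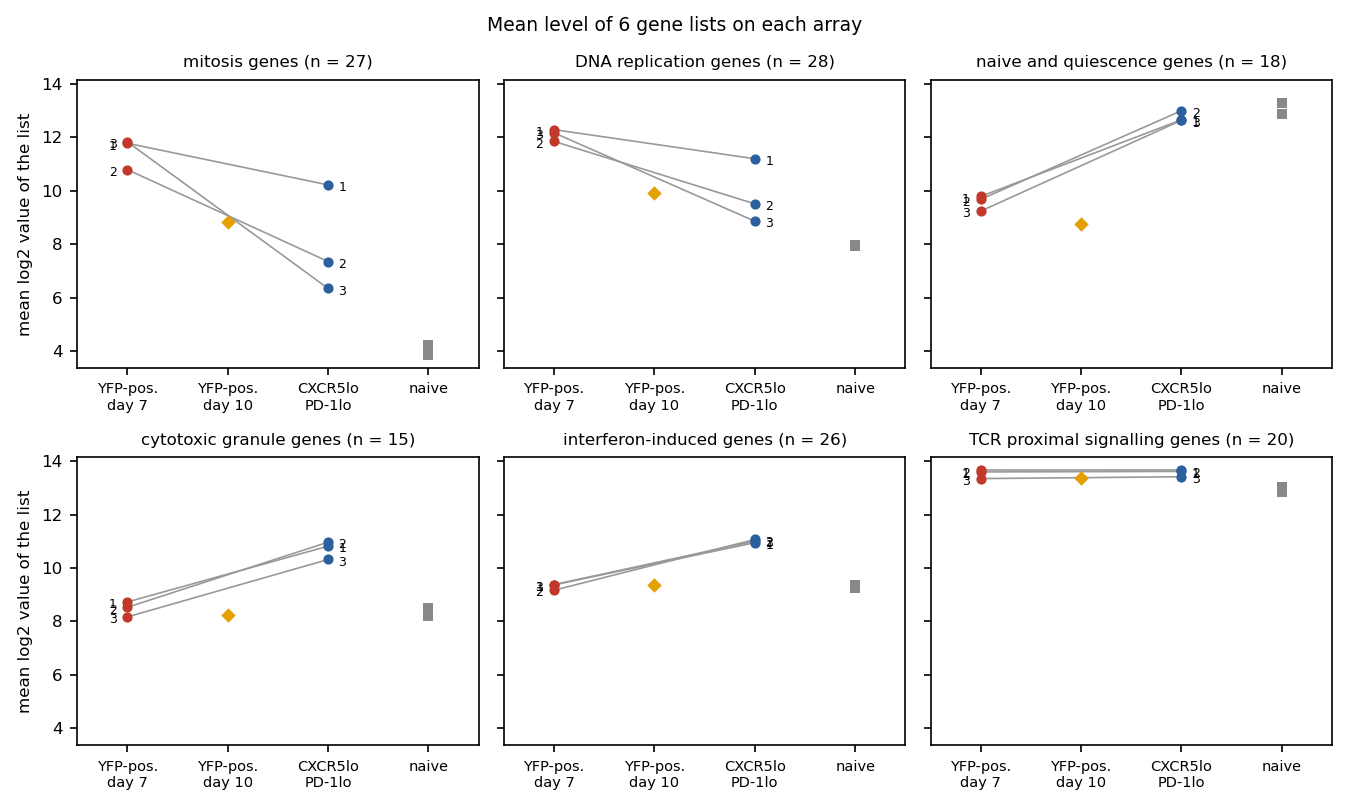
Mean log2 level of 6 gene lists on each array, with YFP-positive day 7 and day 10, CXCR5lo PD-1lo and naive arrays from left to right and lines joining same-numbered arrays. Mitosis and DNA replication genes fall apart by pair, with CXCR5lo PD-1lo replicate 1 nearest to the YFP-positive arrays, while naive and quiescence genes, cytotoxic granule genes and interferon-induced genes were lower on all 3 YFP-positive arrays than on all CXCR5lo PD-1lo arrays, and TCR proximal signalling genes held no called gene.

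Of 19 glycolysis and hypoxia genes 5 rose and 0 fell, and with the replicate block 10 rose and 1 fell. Aldoc, the aldolase C gene, had log2 9.71, 9.98 and 9.70 on the YFP-positive arrays, against 4.002, 2.81 and 4.35 on the CXCR5lo PD-1lo arrays, and naive cells had 4.88 and 2.51 (log2 difference 6.08, SE 0.61, adjusted p = 1.6e-05). Egln3, an oxygen-sensing prolyl hydroxylase induced by hypoxia, had 12.37, 12.32 and 12.54 in YFP-positive cells and 10.23, 9.80 and 9.54 in CXCR5lo PD-1lo cells and was near the floor in naive cells, at 3.34 and 2.97 (log2 difference 2.55, SE 0.28, adjusted p = 3.8e-05). Bnip3, a mitochondrial gene induced by hypoxia, had 8.78, 8.67 and 8.89 in YFP-positive cells and 5.77, 7.01 and 7.14 in CXCR5lo PD-1lo cells (log2 difference 2.14, SE 0.39, adjusted p = 0.0028). The glycolytic enzyme gene Tpi1 rose too (1.87, SE 0.37, adjusted p = 0.0044). Of 20 cholesterol synthesis genes 3 rose and 0 fell, 8 and 0 with the replicate block, and the number that rose was 1, 1 and 1 without YFP-positive replicates 1, 2 and 3, and 1, 1 and 1 without CXCR5lo PD-1lo replicates 1, 2 and 3. Pmvk, which encodes phosphomevalonate kinase, had 10.94, 10.98 and 11.25 in YFP-positive cells and 9.67, 9.48 and 9.75 in CXCR5lo PD-1lo cells (log2 difference 1.42, SE 0.31, adjusted p = 0.0091). Pmvk lost its call with the day 10 array added. The day 10 array had 9.76.

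**Figure D4:**
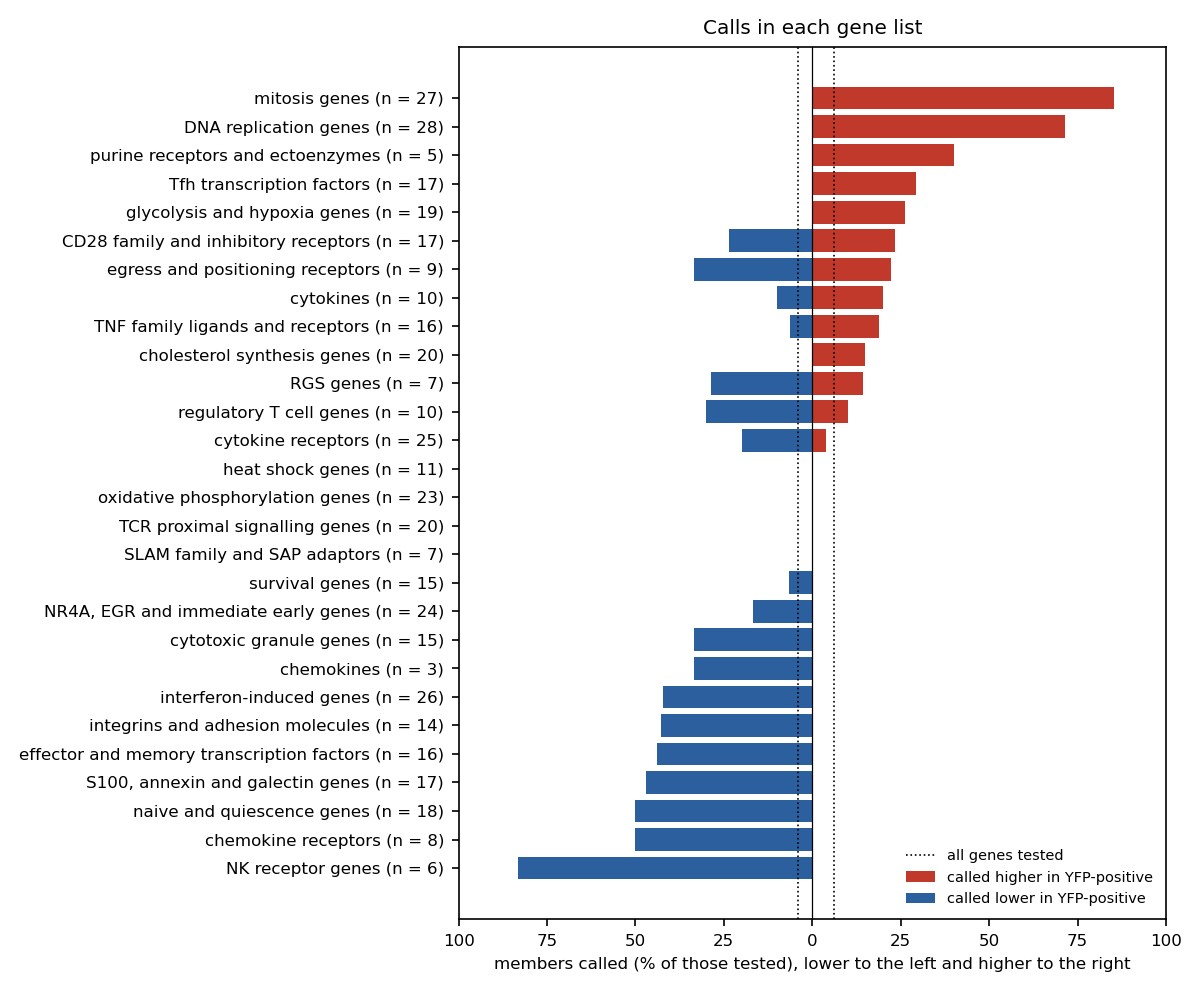
Share of the tested members of each gene list, leaving out the sort genes, the markers of other cells and the sex-linked transcripts, that were called higher (bars to the right) or lower (bars to the left) in YFP-positive cells, with dotted lines at the shares over all 9930 genes. Among the lists drawn, mitosis and DNA replication genes reached furthest to the right and NK receptor genes furthest to the left, while 4 (heat shock, oxidative phosphorylation, TCR proximal signalling, and SLAM family genes) held no called gene.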

How the data were processed

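Each sample has 1 Affymetrix mouse array, deposited as a log2 value per probe set. Per the labels' protocols, RNA was isolated with TRIzol and amplified to biotinylated cDNA, and the values were made with GCRMA, per the submitters' processing notes, of a version not given in the sources used here. Of 45101 probe sets, 34945 carried 1 gene symbol in the platform annotation, 932 several, 9160 none and 64 were controls; 34741 matched the RefSeq table of GRCm38.p6 by identifier. Probe sets at log2 4 or more on at least 2 arrays were kept (18626 with 1 symbol), and each gene was given its probe set with the highest mean, leaving 9930 genes. Some genes are not reported here.

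Group means (cell type by day) were fitted to all 19 arrays with limma 3.58.1 in R 4.3.3 without a block (10 residual degrees of freedom), tested two-sided and adjusted by Benjamini-Hochberg over all genes; SE is that of the fit. All adjusted p-values come from limma. The titles number the arrays 1 to 3 in both groups. Deviations of same-numbered arrays from their group means correlated at 0.659, 0.659 and 0.614, so the numbers were taken as pairs, and the fit with the replicate number as a block (on the 6 arrays) is given where it changes the call of a named gene or moves a count by over 1.5 times. Precision is limited by the number of arrays.

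The genes, lists and tests were chosen with earlier results of these data known. Named genes are Cxcr5, Pdcd1, Bcl6, Il4, Nkg7 and Tbx21, the 12 highest and 12 lowest differences among 961 called genes without overlap between groups and with 1 sign in all 3 pairs (Gm, LOC and Rik symbols left out), and up to 6 members per list by adjusted p. All marker and sex-linked genes could be named. Of 16 other probe sets of the genes named by the first 2 rules, 16 went the same way. Alternatives were the 6 arrays alone, the block, the day 10 array added, other filters, averaged probe sets, quantile normalization, median centring, a trended robust spread, and each array left out.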

Additional observations from a re-analysis of the deposited data

How the results depend on the processing

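The main counts were 621 genes higher and 408 lower in YFP-positive cells. With the replicate number as a block they were 1408 and 1384, and after quantile normalization 1042 and 839, the 2 settings that moved them most apart from leaving out arrays. Leaving out 1 array in turn gave 362 to 671 higher and 269 to 381 lower. The other 7 settings gave 431 to 659 higher and 317 to 477 lower. The replicate block leaves each difference as it was and compares arrays within pairs; its adjusted p is given beside each named gene whose call it changed, and it changed no other call of a gene named. Of 108 called genes named, 96 kept their call in all 6 runs that left out an array. Under the other settings 96 to 108 kept it, of the 100 to 108 tested there. That 0 changed direction was mostly fixed in advance. A fit of the 6 arrays alone, the block and the trended robust spread leave each difference as it was. Where groups do not overlap, leaving out 1 array cannot change the sign. This held for 604 of all 621 genes called higher and 404 of all 408 called lower. Median centring and quantile normalization kept the median of all genes within 0.01 of 0, and adding the day 10 array moved it to -0.07. The cause of the changes with the block and with quantile normalization was not tested. Genes at the floor of the scale have differences whose size depends on that floor.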

Other observations

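Signalling genes close to the T cell receptor did not pass the test. Of 20 tested 0 were called in either direction by limma, and 1 rose and 1 fell with the replicate block, which were Fyn (adjusted p = 0.049) and Dgka (adjusted p = 0.017). The list median was -0.03. Dgka, which encodes a lipid kinase that limits receptor signals, had 13.69, 13.83 and 13.61 in YFP-positive cells and 14.33, 14.61 and 14.48 in CXCR5lo PD-1lo cells. It also passed as lower in a fit of the 6 arrays alone and with the day 10 array added. The same held after quantile normalization and with a trended robust spread. Fyn also passed as higher after quantile normalization. Of 7 genes of the SLAM family and its adaptors 0 were called (1 rose with the replicate block); Sh2d1a, which encodes the adaptor SAP needed for stable contact between Tfh cells and B cells, had 14.34, 13.97 and 13.79 in YFP-positive cells and 13.95, 13.35 and 13.05 in CXCR5lo PD-1lo cells (adjusted p = 0.49, and 0.033 with the replicate block). Of 23 oxidative phosphorylation genes 0 were called, with a list median of 0.19, and 1 rose with the replicate block. Of 11 heat shock genes 0 were called, and 1 fell with the replicate block. A miss of the threshold does not show that levels are equal. At an unadjusted p under 0.05 (limma, main fit) these lists held 1, 0, 0 and 0 genes in the order named. Over all 9930 genes tested the number was 1971.

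Receptors and enzymes of extracellular purines included P2rx7, an ATP-gated channel, with 14.15, 14.19 and 13.78 in YFP-positive cells and 13.29, 12.43 and 12.24 in CXCR5lo PD-1lo cells (log2 difference 1.39, SE 0.37, adjusted p = 0.03), and Nt5e, which encodes the ectoenzyme CD73, with 11.94, 11.99 and 12.02 in YFP-positive cells and 11.51, 10.74 and 10.64 in CXCR5lo PD-1lo cells (log2 difference 1.02, SE 0.27, adjusted p = 0.028). Both were higher on every YFP-positive array. P2rx7 lost its call without YFP-positive replicate 1, 2 or 3 or CXCR5lo PD-1lo replicate 2 or 3 (log2 differences 1.18 to 1.70 and adjusted p up to 0.14 over the 6 runs that each left out 1 array), and with no filter on low values and after median centring. Nt5e lost its call without YFP-positive replicate 1, 2 or 3 or CXCR5lo PD-1lo replicate 2 or 3 (log2 differences 0.86 to 1.29 and adjusted p up to 0.14 over the 6 runs that each left out 1 array), and in a fit of the 6 arrays alone and after median centring. Of 15 survival genes 1 fell (6.67%, against 4.11% of all genes tested) and 0 rose. The pro-apoptotic Bcl2l11, which encodes BIM, was the one that fell (log2 difference -1.62, SE 0.48, adjusted p = 0.045). It had 11.80, 11.52 and 10.25 in YFP-positive cells and 13.26, 12.79 and 12.40 in CXCR5lo PD-1lo cells. Bcl2l11 lost its call without YFP-positive replicate 2 or 3 or CXCR5lo PD-1lo replicate 1, 2 or 3 (log2 differences -1.93 to -1.15 and adjusted p up to 0.22 over the 6 runs that each left out 1 array), and in a fit of the 6 arrays alone, with no filter on low values and after median centring.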
